A study of Mus musculus with 58 samples.

Results

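Interferon signalling and response genes were followed through single cells of mouse bone marrow. The group is a named list of 35 genes, and all 35 had a count in at least 1 of 58 cells. The count table lists 23152 gene symbols, of which 12887 had any count. By role the list splits into 12 signalling genes (4 receptor chains, 2 kinases and 6 transcription factors), 5 genes of RNA sensing and editing, and 18 interferon-induced genes (15 effectors and 3 GTPases).

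The cells came from the marrow of wild-type C57BL/6 mice and were sorted by surface markers into a pair of gates. The first gate, with 34 cells, held long-term haematopoietic stem cells (LT-HSC, also called stem cells below), defined as lineage-negative, Kit+, Sca-1+, Flt3- and CD34-. The other, with 24 cells, held common myeloid progenitors (CMP, or progenitors), defined as lineage-negative, Kit+, Sca-1-, CD16/32- and CD34+. The labels name no animal, age or sex and no interferon treatment, so each gate is 1 sample, no test was made, and every interval below is a 95% interval for counting error only, too narrow where PCR copies were counted as molecules. A passage range stands on every label, without a word on what was passaged.

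Cells are also given in blocks by cell number: LT-HSC 1 to 16, LT-HSC 17 to 34, CMP 1 and 2, and CMP 3 to 24. No label sets these blocks, and they were drawn with earlier values known. Xist, which marks cells of female mice, was at 0 in the 34 LT-HSC and in CMP 1 and 2 and had counts in 22 of 22 later CMP, so gate and donor sex cannot be told apart outside CMP 1 and 2. Median depth was 211044 counts in LT-HSC 1 to 16, 306454 in LT-HSC 17 to 34, 644013 in CMP 1 and 2 and 264742 in CMP 3 to 24. Pooled over cells the LT-HSC held 9931131 counts and the CMP 7062737. Stem cell markers made up a median of 4.39 of 10000 counts in LT-HSC and 0.46 in CMP, and granulocyte and monocyte progenitor markers 3.65 and 47.5. The 9 mature neutrophil markers were present in both gates, at medians of 3.38 and 5.30 per 10000, and their part in the values below was not tested. Of 7 macrophage markers, 6 were at 0 in all LT-HSC, and the summed level reached at most 0.032 per 10000 in an LT-HSC and 0.076 in a CMP. Of 6 T or NK cell markers in the table Cd3d, Cd3e and Cd3g were at 0 in every cell, and Nkg7 alone had counts in LT-HSC. The summed T or NK level had a median of 2.78 per 10000 and a highest value of 16.9 over LT-HSC 17 to 34, was at most 0.14 over LT-HSC 1 to 16, and had a median of 3.39 over the CMP, and its part in the values was not tested.

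Type I interferons bind the receptor chains Ifnar1 and Ifnar2, which act through the kinases Jak1 and Tyk2. Below the type I receptor the kinases activate Stat2, which acts with Irf9 in a complex that binds the interferon-stimulated response element (ISRE) of induced genes. Interferon gamma binds Ifngr1 and Ifngr2 and acts mainly through another element, the gamma-activated site (GAS). Stem cells are known to express some induced genes without infection, and lasting interferon exposure is known to drive them out of rest.

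Windows from 250 bases before to 50 after the transcript start, from RefSeq on GRCm38.p6, were found for 30 of the 35 genes. They were searched on both strands for an ISRE core, written as GAAA, any 2 bases and GAAA (on the other strand TTTC, any 2 bases and TTTC), and for GAS as TTCNNNGAA, where N is any base. An ISRE core lay in a window of 13 of the 30 genes, or 43.3%, against 3.99% of 27025 genes in the same table. Among the induced genes with a window 8 of 13 held it, among the sensing genes 3 of 5, and among the signalling genes 2 of 12, Stat2 and Irf2. GAS lay in 12 of 30, or 40%, against 9.55% of all genes. Usp18, Rtp4, Ifi27l2a, Parp14 and Iigp1 are named only. A match describes letters and is not a shown binding site.

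Windows are printed for the 4 ISRE-holding genes with the most counts, Bst2, Irf2, Gbp7 and Gbp2, so that the element can be seen beside the levels. Ifit1 and Isg15, whose counts lay in few cells, were added after their values were seen. Each runs 5′ to 3′ on the strand of the gene, and capitals mark the ISRE core. The windows lie at chr8:71537423-71537722 on the minus strand (Bst2), chr8:46739495-46739794 plus (Irf2), chr3:142530086-142530385 plus (Gbp7), chr3:142620413-142620712 plus (Gbp2), chr19:34640639-34640938 plus (Ifit1) and chr4:156200769-156201068 minus (Isg15).
Bst2: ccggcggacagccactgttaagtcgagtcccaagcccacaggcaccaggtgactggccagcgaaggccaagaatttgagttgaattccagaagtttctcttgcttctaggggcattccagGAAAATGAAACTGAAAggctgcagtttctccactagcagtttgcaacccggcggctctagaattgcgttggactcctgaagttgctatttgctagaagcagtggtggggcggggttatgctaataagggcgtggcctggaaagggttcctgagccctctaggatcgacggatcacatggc
Irf2: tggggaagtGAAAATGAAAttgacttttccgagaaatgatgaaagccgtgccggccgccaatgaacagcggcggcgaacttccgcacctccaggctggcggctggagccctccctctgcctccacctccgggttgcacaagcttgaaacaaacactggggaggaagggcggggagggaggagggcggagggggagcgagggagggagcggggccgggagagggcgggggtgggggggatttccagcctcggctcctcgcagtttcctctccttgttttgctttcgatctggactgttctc
Gbp7: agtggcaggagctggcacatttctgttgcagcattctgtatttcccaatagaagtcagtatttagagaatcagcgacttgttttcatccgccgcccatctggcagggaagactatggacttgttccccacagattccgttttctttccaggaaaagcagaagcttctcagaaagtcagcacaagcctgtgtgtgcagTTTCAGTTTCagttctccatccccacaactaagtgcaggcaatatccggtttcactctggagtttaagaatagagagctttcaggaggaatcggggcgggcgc
Gbp2: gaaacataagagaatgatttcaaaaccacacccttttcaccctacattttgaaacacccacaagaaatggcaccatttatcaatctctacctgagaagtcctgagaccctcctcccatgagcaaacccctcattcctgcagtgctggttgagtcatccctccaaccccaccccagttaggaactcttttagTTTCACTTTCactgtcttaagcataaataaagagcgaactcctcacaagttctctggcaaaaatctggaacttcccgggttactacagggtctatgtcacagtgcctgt
Ifit1: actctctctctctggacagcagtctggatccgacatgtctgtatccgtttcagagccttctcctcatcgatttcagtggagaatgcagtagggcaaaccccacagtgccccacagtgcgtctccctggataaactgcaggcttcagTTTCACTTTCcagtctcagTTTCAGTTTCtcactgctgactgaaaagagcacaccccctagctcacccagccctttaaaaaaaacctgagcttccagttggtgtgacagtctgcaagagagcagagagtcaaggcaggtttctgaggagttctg
Isg15: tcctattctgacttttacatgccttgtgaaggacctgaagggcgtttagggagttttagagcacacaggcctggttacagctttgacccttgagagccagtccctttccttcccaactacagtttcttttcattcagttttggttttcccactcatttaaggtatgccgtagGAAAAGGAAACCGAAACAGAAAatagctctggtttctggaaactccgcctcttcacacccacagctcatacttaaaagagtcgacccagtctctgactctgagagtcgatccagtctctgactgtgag

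In the Isg15 window 3 overlapping cores begin 78, 72 and 66 bases before the start. Ifit1 has 2 separate cores, at 104 and 85 bases before it, and Bst2 has 2 overlapping cores at 130 and 124. The cores of Gbp2 and Gbp7 begin 59 and 53 bases before the start, and that of Irf2 lies farther out, at 241. Gbp2 and Gbp7 read the core on the strand opposite to Isg15 and Bst2, as does Ifit1.

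**Figure D1:**
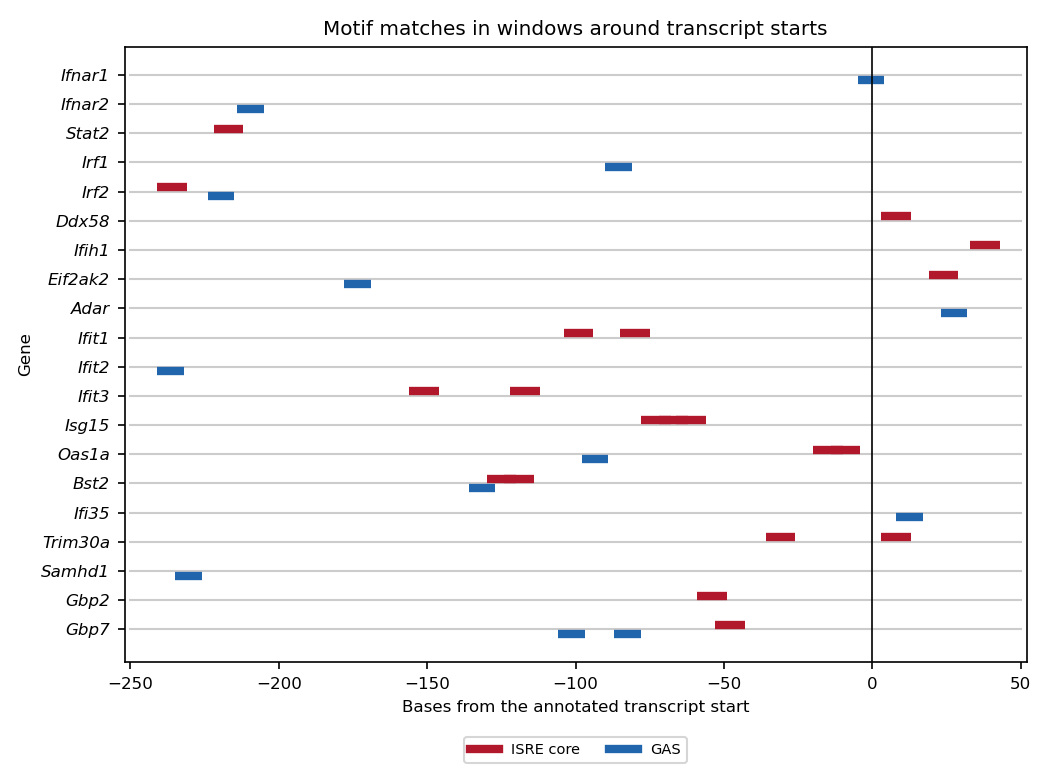
Matches to the ISRE core (red) and GAS (blue) in the windows of the 20 genes with a match, against distance in bases from the annotated transcript start (vertical line). Cores of the induced genes Isg15, Ifit1, Ifit3, Bst2, Gbp2 and Gbp7 lie before the start, Trim30a has 1 core before and 1 just after the starts of its windows, and those of the sensing genes Ddx58, Ifih1 and Eif2ak2 lie just after it.

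The first question was whether stem cells and progenitors differ in these genes. Levels are CPM, the summed counts of a gate scaled to a common total, and a log2 ratio sets LT-HSC over CMP with 0.5 added to each count. Of the 17 induced genes with at least 20 counts, 10 were at least 2-fold higher in stem cells, 2 at least 2-fold higher in progenitors and 5 between, with a median log2 ratio of 1.15. Over all 10937 genes with that many counts, 22.7% were at least 2-fold higher in stem cells and 28.1% in progenitors, and the median was −0.13. Sensing genes gave 3 higher in LT-HSC, 1 in progenitors and 1 between, with a median of 1.08. Signalling genes gave 3, 1 and 8, with a median of 0.41. By summed level the sensing genes were nearly level between the gates, at 1.15 per 10000 counts in the LT-HSC pool and 1.08 in the CMP pool, and the signalling genes stood at 7.76 and 6.27, so the order of these groups was the reverse of that of their medians.

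**Figure D2:**
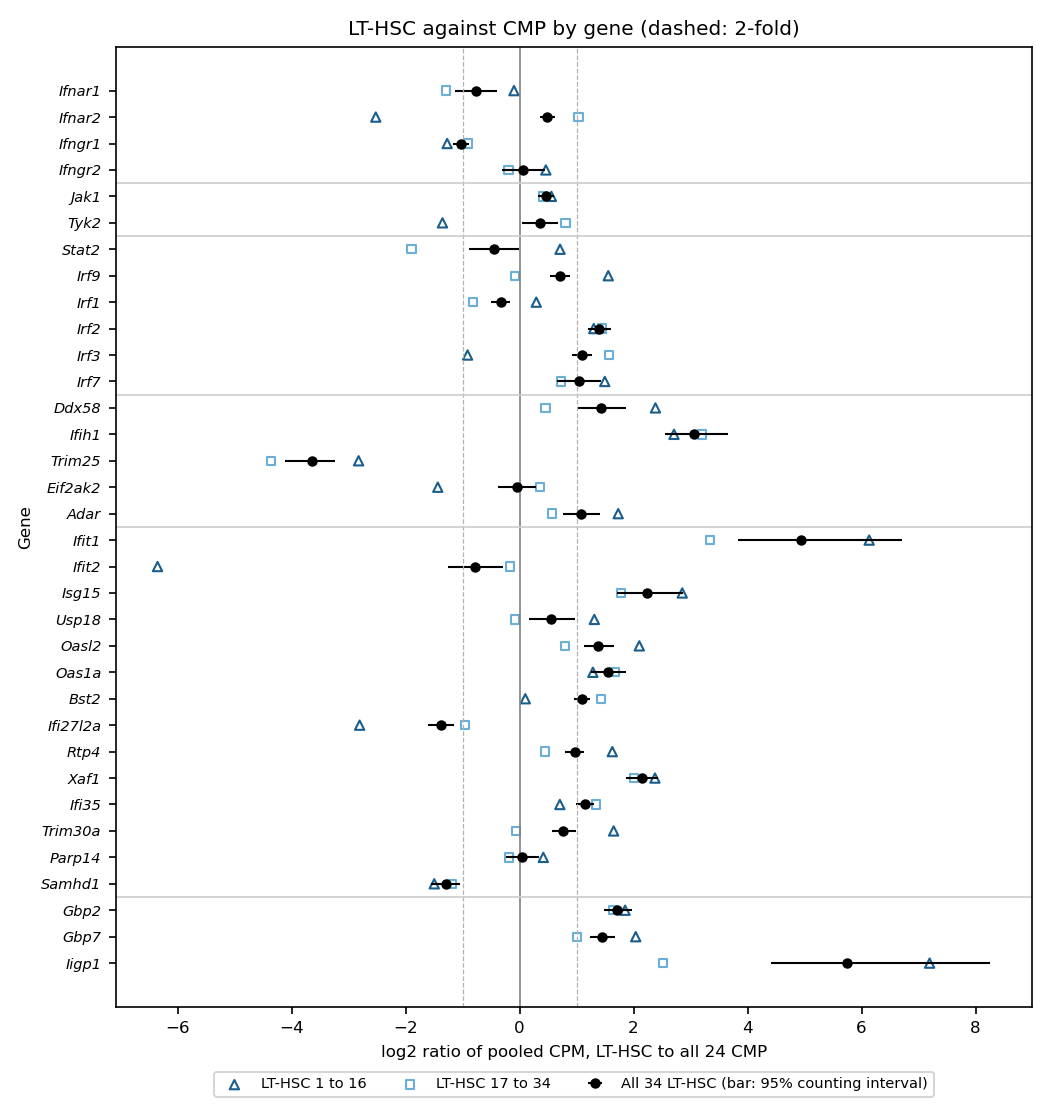
Log2 ratio of pooled CPM for 34 genes, with all 34 LT-HSC (black, bar for the 95% counting interval), LT-HSC 1 to 16 (triangles) and LT-HSC 17 to 34 (squares) each set over the same 24 CMP; dashed lines mark 2-fold. All 3 GTPase genes lie right of the upper line, and the triangle of Ifit2 rests on no count in LT-HSC 1 to 16.

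Against CMP 1 and 2 alone, which match the LT-HSC in lacking Xist, 10 of 17 induced genes were at least 2-fold higher in stem cells and 2 in progenitors, with a median of 1.57. There the background itself leaned to LT-HSC, with 48.8% of 9993 genes at least 2-fold higher in stem cells, 18.9% in CMP 1 and 2 and a median of 0.91, so the count in those 2 cells stood closer to the background. Against CMP 3 to 24 the induced genes gave 10 and 2 with a median of 1.24, beside 22.8% and 28.7% of all genes and a median of −0.13. These comparisons share the LT-HSC. Among the CMP themselves, 5 of 15 induced genes with enough counts reached 2-fold in favour of CMP 1 and 2 (Isg15, Oas1a, Bst2, Ifi27l2a and Gbp2) and 5 in CMP 3 to 24 (Ifit2, Usp18, Oasl2, Xaf1 and Parp14), beside 13.6% and 48.6% of all genes. Within CMP 1 and 2 all counts of Isg15 and Gbp2 lay in CMP 1 and all of Oas1a in CMP 2.

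Receptor chains were not higher in LT-HSC as a group. Ifngr1, the ligand-binding chain for interferon gamma, stood at 66.3 CPM (61.3 to 71.5) in stem cells and 135 (126 to 144) in progenitors, a log2 ratio of −1.02. Over single cells it ranged from 0 to 945 CPM with a median of 14.6 in stem cells and from 0 to 444 with a median of 103 in progenitors. The ranges overlapped, and the middle of the CMP lay above that of the LT-HSC. With CMP 17 left out the ratio was −0.83, under 2-fold.

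Ifnar1 and Ifnar2 form the type I receptor. Ifnar1, at 11.5 CPM in stem cells and 19.5 in progenitors, was detected in 12 of 34 stem cells, and its log2 ratio moved from −0.77 to −1.43 without LT-HSC 21. Ifnar2 was at 129 CPM in stem cells and 91.7 in progenitors, a log2 ratio of 0.49. That pooled value hid a split inside the stem cell gate. Ifnar2 stood at 15.8 CPM (11.9 to 20.7) in the first block (LT-HSC 1 to 16) and 188 (177 to 198) in the second, with cell medians of 3.27 and 160. At least 10 counts were present in 2 of 16 cells of the first block and 10 of 18 of the second, and the CMP lay between the blocks. Ifngr2, the second gamma chain, was at 15.4 CPM in stem cells and 14.7 in progenitors with no count in CMP 1 and 2, with a log2 ratio of 0.063 that was −0.72 without LT-HSC 34. Ifnar2 (chr16:91372783-91405589), Ifnar1 (chr16:91485238-91507441) and Ifngr2 (chr16:91547072-91565623, all mm10) are neighbours on the plus strand. Ifnar1 and Ifngr2 stood higher in the first LT-HSC block, at 18.2 against 7.97 CPM and 20.2 against 12.9, and Ifnar2 in the second.

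Jak1, the kinase common to all these receptors, stood at 139 CPM in stem cells (132 to 147) and 101 in progenitors (93.7 to 109), a log2 ratio of 0.46. Its cell medians were 85.2 and 45.1 CPM, with 0 as the lowest value in both gates and 1094 and 460 as the highest. LT-HSC blocks were alike in it, at 149 and 134 CPM, but CMP 1 and 2 held only 13.2 against 120 (112 to 130) in CMP 3 to 24. Tyk2 was sparse, with at least 10 counts in 3 stem cells and in 4 progenitors. Its log2 ratio of 0.36 turned to −0.46 without LT-HSC 20, which held 44.6% of the counts over the stem cell gate.

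Among the transcription factors Irf2, which binds ISRE sequences and can restrain interferon responses, was 2.64-fold higher in stem cells, at 95.7 CPM (89.7 to 102) against 36.2 (31.9 to 41.0). Cells ranged from 0 to 481 CPM in stem cells and 0 to 362 in progenitors. The medians went the other way, at 5.08 in stem cells and 11.6 in progenitors, and 11 LT-HSC and 9 CMP held at least 10 counts. Averaging the CPM of single cells gave a log2 ratio of 0.47 in place of 1.40.

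Irf3 and Irf7 drive interferon genes once RNA sensors fire. Irf3 was at 108 CPM in stem cells and 50.4 in progenitors, but LT-HSC 30 alone held 51% of the Irf3 counts over the stem cell gate. With that cell left out the log2 ratio fell from 1.10 to 0.12. In LT-HSC 1 to 16 Irf3 lay below the CMP, at 26.7 CPM. Irf7 was at 22.5 and 10.9 CPM. CMP 1 held 70.1% of the CMP counts, and leaving that cell out took Irf7 from 1.04 to 2.61, while against CMP 1 and 2 alone it was −0.94. Irf3 (chr7:44997648-45002848) overlaps the exons of Bcl2l12 (912 counts) on the other strand and Irf7 those of Phrf1 (513 counts). Whether strand was used in counting is not given in the sources used here, so reads of these neighbours may be mixed in.

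Stat2 and Irf9 are the parts of the ISRE-binding complex among the 35. Irf9 stood at 93.8 CPM in stem cells and 57.5 in progenitors, a log2 ratio of 0.70 that moved to 1.29 without CMP 23. Its level differed by block, at 169 CPM (156 to 184) in the first block (LT-HSC 1 to 16) and 54.3 (48.8 to 60.2) in the second, with cell medians of 79.9 and 0. LT-HSC 16 was the highest cell, at 763 CPM. Irf9 shares exon sequence with Rnf31 (111 counts) on the same strand. Stat2 was at 9.36 CPM in stem cells and 12.7 in progenitors, where CMP 1 held 64 of 90 counts. Without CMP 1 its log2 ratio turned from −0.44 to 1.18. Within LT-HSC it stood at 20.8 CPM in cells 1 to 16 and 3.37 in cells 17 to 34.

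Irf1, an early activator of gamma responses, was at 62.7 CPM in stem cells and 79.0 in progenitors. Its log2 ratio of −0.33 moved to −0.98 without LT-HSC 13, the highest cell at 1099 CPM, and to 0.011 without CMP 14.

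RNA sensors were unevenly spread over cells. Ifih1, which encodes the double-stranded RNA sensor MDA5, was 8.42-fold higher in stem cells, at 37.0 CPM (33.3 to 40.9) against 4.39 (2.98 to 6.23). No CMP held 10 counts of it and 8 of 34 LT-HSC did. The median LT-HSC had none, the highest had 445.5 CPM (LT-HSC 19), and CMP ran from 0 through a median of 3.07 to 86.8. After each cell was thinned to 97978 counts, Ifih1 was seen in 6 of 30 LT-HSC and 7 of 22 CMP, and no order is read from these shares. Both LT-HSC blocks were above the CMP, at 29.03 and 41.1 CPM.

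Ddx58, the gene of RIG-I, was at 22.96 CPM in stem cells and 8.50 in progenitors, a log2 ratio of 1.43 that was 0.91 without LT-HSC 6. Most of it lay in LT-HSC 1 to 16, at 44.6 CPM against 11.7 in LT-HSC 17 to 34. Trim25, a ubiquitin ligase that acts with RIG-I, went against the other sensing genes. It was 12.7-fold higher in progenitors, at 61.2 CPM (55.5 to 67.2) against 4.83 (3.56 to 6.41) in LT-HSC, and 23 of 24 CMP but 11 of 34 LT-HSC had a count. LT-HSC cells ran from 0 through a median of 0 to 125 CPM and CMP from 0 through 31.3 to 390. Without CMP 19 its log2 ratio moved from −3.65 to −3.03, and against CMP 1 and 2 alone it was −2.18.

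Eif2ak2, the gene of the kinase PKR that stops translation on double-stranded RNA, showed no difference past counting error, at 17.9 CPM (15.4 to 20.8) in stem cells and 18.6 (15.5 to 22.01) in progenitors. Its log2 ratio ran from −0.94 without LT-HSC 30 to 0.70 without CMP 20. Adar, an RNA editing enzyme that keeps self RNA from the sensors, was at 32.6 CPM in stem cells and 15.4 in progenitors. Its log2 ratio of 1.08 was 0.71 without LT-HSC 27. In the first LT-HSC block it stood at 51.3 CPM and in the second at 22.9.

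**Figure D3:**
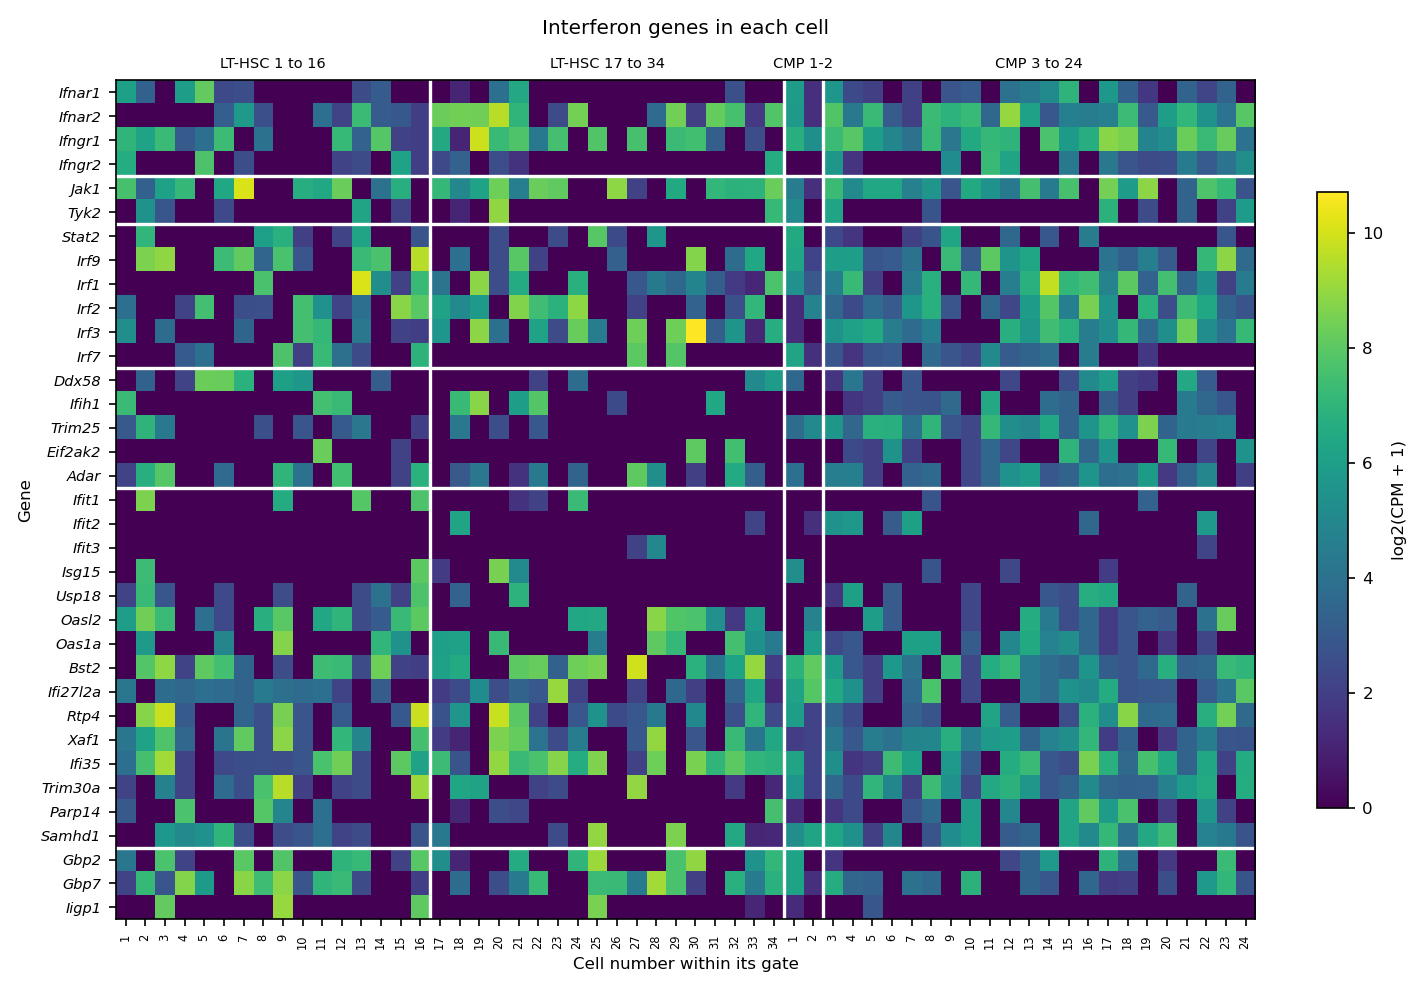
Level of each of the 35 genes (rows, grouped by role) in each of 58 cells (columns, by block), as log2(CPM + 1) with yellow for high. Many squares are empty, and the filled ones for a given gene sit in different cells, with LT-HSC 2, 9 and 16 among the cells holding several induced genes.

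The induced genes with the widest difference between the gates were on in few cells. Ifit1, which binds RNA that lacks host cap marks, had 237 counts in stem cells and 5 in progenitors, or 23.9 CPM (20.9 to 27.1) against 0.71 (0.23 to 1.65). Those LT-HSC counts lay in 7 cells, with 391.9 CPM in LT-HSC 2, 233.9 in LT-HSC 13, 213.0 in LT-HSC 16, 157.3 in LT-HSC 24, 96.0 in LT-HSC 9 and at most 3.23 in the other 2 cells. The remaining LT-HSC had none, and the highest CMP had 9.29. Both gates overlapped at 0, and 5 LT-HSC stood above every CMP. Ifit1 was higher in LT-HSC by a log2 ratio of 4.94 (3.83 to 6.71), which moved to 6.72 without CMP 19.

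Isg15 encodes a ubiquitin-like protein that is joined to other proteins. Its 202 LT-HSC counts lay in 5 cells, at 366.8 CPM in LT-HSC 20, 260.3 in LT-HSC 16, 160.3 in LT-HSC 2, 32.8 in LT-HSC 21 and 2.74 in LT-HSC 17. In CMP it had 30 counts, 27 of them in CMP 1 at 38.2 CPM. Pooled levels were 20.3 and 4.25 CPM. The log2 ratio of 2.24 depended on CMP 1, as it was 5.21 without that cell and −0.066 against CMP 1 and 2 alone. Usp18, the protease that removes Isg15 and damps the type I receptor, was at 16.7 CPM in stem cells and 11.3 in progenitors. LT-HSC 16 held 42.8% of its counts over the stem cell gate, and without that cell the log2 ratio turned from 0.56 to −0.20.

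Iigp1, an interferon-inducible GTPase that attacks the vacuoles of intracellular parasites, had 265 counts in stem cells and 3 in progenitors. The CMP counts were 2 in CMP 5 and 1 in CMP 1. Its LT-HSC levels were 537.7 CPM in LT-HSC 9, 377.6 in LT-HSC 25, 280.5 in LT-HSC 3, 269.2 in LT-HSC 16 and 1.21 in LT-HSC 33, with the remaining LT-HSC at 0. LT-HSC 3, 9 and 16 held 93.2% of the counts. Without these 3 the log2 ratio was 2.02 in place of 5.75 (4.41 to 8.26).

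**Figure D4:**
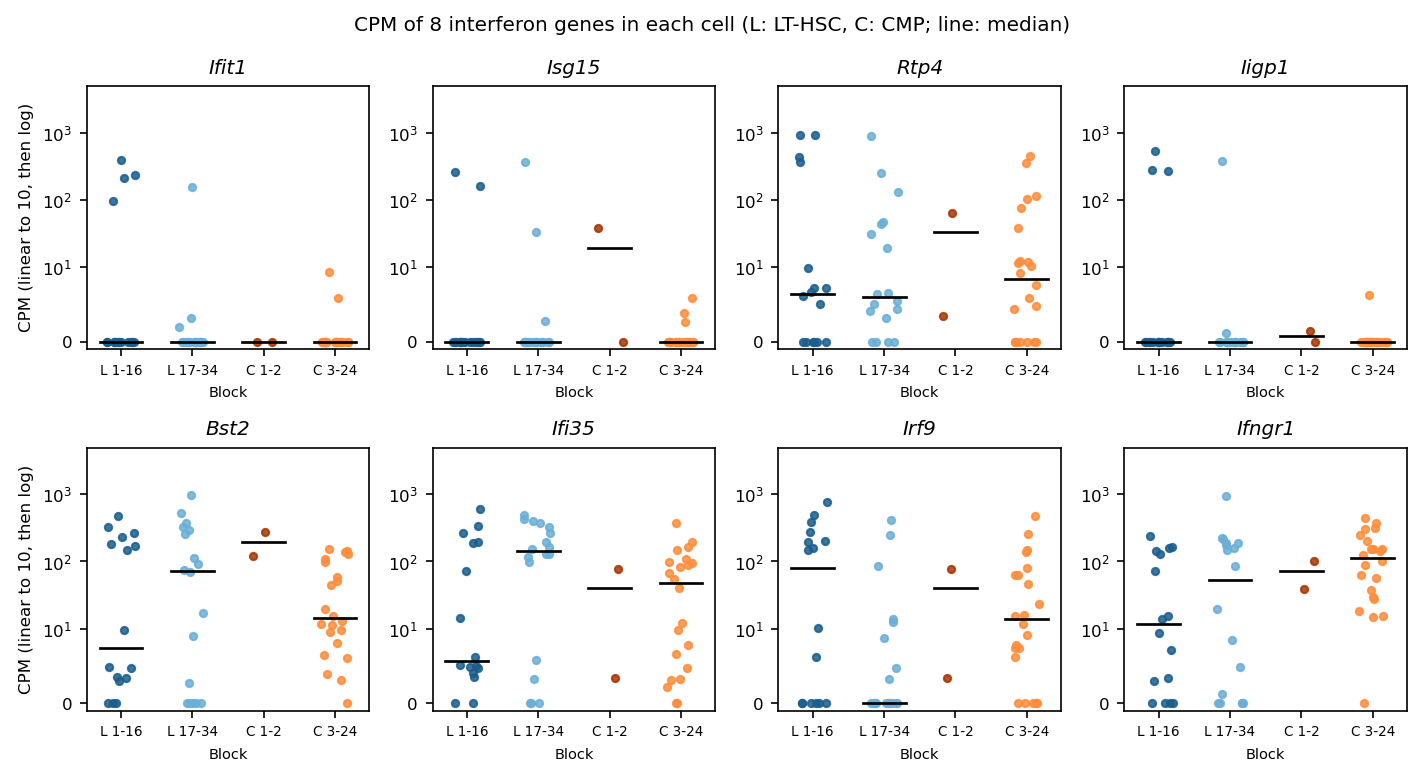
CPM of 8 genes in each cell by block (L for LT-HSC, C for CMP; axis linear up to 10 and logarithmic above; black line for the median). Ifit1, Isg15 and Iigp1 have medians of 0 in both LT-HSC blocks with a few cells far above, while Ifi35 has a median of 142 CPM in LT-HSC 17 to 34.

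The guanylate-binding proteins Gbp2 and Gbp7, which assemble on the membranes of invading microbes, were higher in stem cells and spread over more cells. Gbp2 stood at 76.4 CPM (71.1 to 82.1) in stem cells and 23.2 (19.8 to 27.1) in progenitors, 3.29-fold higher. It ran from 0 through a median of 2.26 to 555 CPM in stem cells and from 0 through 0 to 158 in progenitors, with at least 10 counts in 14 stem cells and in 3 progenitors. Gbp7 stood at 81.8 CPM and 29.9, 2.74-fold higher, with cell medians of 20.1 and 6.25. Both LT-HSC blocks lay above the CMP in both genes, and no single cell left out brought either under 2-fold. Against CMP 1 and 2 alone the log2 ratios were 0.91 and 0.98, both just under 2-fold and near the 0.91 median of all genes in that comparison.

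Ifi35 and Xaf1 were spread over many cells. Ifi35, a leucine zipper protein, was at 135 CPM (128 to 142) in stem cells and 60.7 (55.1 to 66.8) in progenitors. It was detected in 29 of 34 stem cells and in 22 of 24 progenitors, its cell medians were 108 and 47.1 CPM and its highest cells 599 and 374. No LT-HSC held more than 9.1% of its counts, and its log2 ratio of 1.15 stayed between 1.03 and 1.37 with each cell left out in turn. The LT-HSC blocks differed, at 99.1 CPM in cells 1 to 16 and 154 in cells 17 to 34. Cell medians of Ifi35 were 5.62 and 142 in these blocks, so that of the first lay below the CMP. With LT-HSC 1 to 16 alone its log2 ratio was 0.71, under 2-fold. Xaf1, which acts against the caspase inhibitor Xiap, was 4.44-fold higher in stem cells, at 78.5 CPM (73.1 to 84.2) against 17.7 (14.7 to 21.1). Its cell medians, 13.4 in stem cells and 16.9 in progenitors, were close, and 11 LT-HSC but 3 CMP had at least 10 counts.

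The oligoadenylate synthetase family senses double-stranded RNA and starts RNA decay, and Oasl2 is named for its sequence likeness to the family. Oas1a was at 46.4 CPM in stem cells and 15.9 in progenitors, and Oasl2 at 59.3 and 22.7. Their log2 ratios were 1.54 and 1.39, and that of Oasl2 moved to 2.59 without CMP 23, which held 58.8% of the CMP counts. In LT-HSC 1 to 16 Oasl2 had a cell median of 74.0 CPM, against 0 in LT-HSC 17 to 34. Near-identical copies can share reads with Oas1a, and of these Oas1g had 20 counts.

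Bst2, or tetherin, which holds budding virus on the cell surface, had the most stem cell counts of the 35, with 1552. It stood at 156 CPM (149 to 164) in stem cells and 73.3 (67.2 to 79.9) in progenitors. Cells ranged from 0 through a median of 43.5 to 985 CPM in stem cells and from 0 through 17.7 to 275 in progenitors. CMP 1 and 2 were high, at 119 and 275 CPM, so that the log2 ratio was 1.09 against all CMP, 1.72 against CMP 3 to 24 and −0.28 against CMP 1 and 2. Leaving out LT-HSC 33 brought it to 0.74. Within LT-HSC it stood at 78.6 CPM in cells 1 to 16 and 197 in cells 17 to 34.

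Rtp4 and Trim30a were close to 2-fold and rested on few cells. Rtp4, a chaperone of membrane receptors that is strongly induced by interferon, stood at 110 CPM in stem cells and 56.1 in progenitors, with cell medians of 6.30 and 8.44. Its log2 ratio of 0.97 was 1.58 without CMP 18 and 0.11 without LT-HSC 3, 9 and 16, which held 48.8% of the counts over the stem cell gate. Trim30a, a restrainer of inflammatory signalling, was at 63.1 and 36.9 CPM. Those 3 cells held 55.5% of its counts over the stem cell gate, and without them its log2 ratio turned from 0.77 to −0.29. Its relatives Trim30b and Trim30d had 107 and 184 counts and could share reads with it.

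A minority of induced genes was higher in progenitors. Ifi27l2a, a gene strongly induced by type I interferon, was 2.59-fold higher in progenitors, at 62.4 CPM (56.8 to 68.5) against 24.1 (21.1 to 27.3). LT-HSC 23 held 49.4% of the counts over the stem cell gate, and its log2 ratio, −1.37, was −2.32 with that cell left out, while leaving out CMP 2 gave −0.97. Samhd1, which limits the supply of nucleotides for viral copying, was 2.45-fold higher in progenitors, at 49.98 CPM against 20.4, with cell medians of 27.9 and 1.29. Averaging the CPM of single cells gave −0.05 in place of −1.29.

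Ifit2 was at 6.95 CPM in stem cells and 11.9 in progenitors. Of its 69 stem cell counts LT-HSC 18 held 66, the 16 cells of the first block held none, and leaving out LT-HSC 18 moved its log2 ratio from −0.77 to −4.95. With 3 counts over LT-HSC 1 to 16 taken as the floor, it was 13.5-fold lower there than in progenitors. The counting interval of that log2 ratio reached up to −3.43, a smaller difference, and 4 CMP held at least 10 counts of Ifit2. Parp14, an ADP-ribosyltransferase, was at 25.5 CPM (22.4 to 28.8) and 24.6 (21.1 to 28.6), within counting error, and its log2 ratio ran from −0.97 without LT-HSC 34 to 0.65 without CMP 18. Ifit3 had 6 counts in stem cells and 1 in progenitors.

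The summed level shows how the induced genes were shared out among cells. The 18 induced genes together made up 9.71 of 10000 counts in the LT-HSC pool and 5.02 in the CMP pool, a log2 ratio of 0.95 (0.90 to 1.01). Single LT-HSC ran from 0.46 through a median of 7.86 to 36.3 per 10000, and CMP from 0.98 through 4.46 to 11.9. CMP 1 and 2 stood at 6.06 and 6.91. The ranges overlapped, but 10 LT-HSC lay above every CMP, 4 of cells 1 to 16 and 6 of cells 17 to 34. For the signalling genes 4 LT-HSC lay above every CMP, and the medians were 5.83 per 10000 in stem cells and 6.39 in progenitors. Sensing genes had medians of 0.78 and 0.89, with 2 LT-HSC above every CMP.

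**Figure D5:**
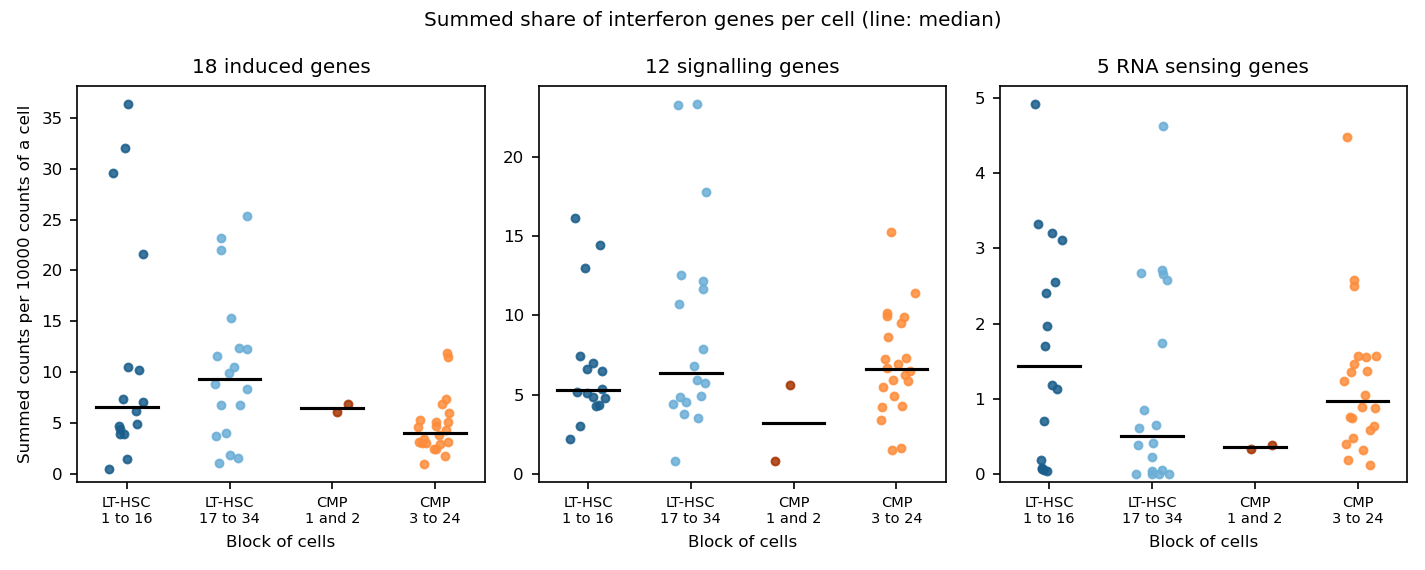
Summed counts of the 18 induced, 12 signalling and 5 sensing genes per 10000 counts of a cell, by block, with 1 point a cell and a line at the median. For the induced genes LT-HSC 9, 16 and 3 stand at 36.3, 32.0 and 29.6, and no CMP exceeds 11.9.

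LT-HSC 9, 16 and 3 held 23.9% of the LT-HSC induced counts and 7.08% of all LT-HSC counts. LT-HSC 16 had at least 10 counts of 10 induced genes, namely Ifit1, Isg15, Usp18, Oasl2, Rtp4, Xaf1, Ifi35, Trim30a, Gbp2 and Iigp1. LT-HSC 9 and LT-HSC 33 reached that for 9 genes and LT-HSC 2 and 21 for 8. CMP 1 also did for 9, and LT-HSC 10 and 19 for none. Without LT-HSC 3, 9 and 16, picked because they were highest, 10 induced genes were at least 2-fold higher in stem cells and 2 in progenitors, with a median of 1.12. The summed log2 ratio was then 0.66. With all LT-HSC kept, 22.7% and 28.1% of all genes passed 2-fold, and no such share is given without LT-HSC 3, 9 and 16. These 3 cells had no count of a macrophage, T or NK cell marker, stem cell markers at 10.5, 13.8 and 5.89 per 10000 in LT-HSC 3, 9 and 16, and plasmacytoid dendritic markers at no more than 0.19. They also held mature neutrophil markers at 4.21, 2.83 and 2.19 per 10000, with 7, 9 and 8 of the 9 genes seen. Their granulocyte and monocyte progenitor markers stood at 2.23, 2.02 and 2.37, with 1 of the 6 genes seen in each cell. The part of both marker sets in the values was not tested. LT-HSC 16 had 2.19 per 10000 of the B cell markers, all from 1 gene, as 5 of the 6 were at 0 in every LT-HSC.

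Detection was sparse. Of 2030 values of a gene in a cell, 46.4% were 0, 22.2% were 1 to 3 counts, 7.73% were 4 to 9 and 23.6% were at least 10. After thinning to equal depth the median LT-HSC had a count of 6 induced genes and the median CMP of 7. Across pairs of 15 induced genes the rank correlation over cells had a median of 0.12 in the first block (LT-HSC 1 to 16) and 0.067 in the second, over 105 pairs, in cells whose depth ran from 71197 to 338038 counts in the first block and from 45022 to 860553 in the second. Values this weak in sparse counts are no finding.

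The second comparison was within the stem cell gate. In LT-HSC 1 to 16 against 17 to 34, 8 of 17 induced genes were at least 2-fold higher in the first block, 3 in the second and 6 between, with a median log2 ratio of 0.60. Over all 9669 genes 26.8% and 29.5% passed 2-fold, with a median of −0.10. Genes on the first side included Iigp1, Ifit1, Trim30a, Usp18, Oasl2 and Rtp4, and those on the second Ifit2, Ifi27l2a and Bst2. This lean rested on few cells. LT-HSC 9, 16 and 3 held 58.9% of the first block's induced counts, and without them the median was −0.79, with 1 gene higher in the first block and 6 in the second. Leaving out LT-HSC 16 alone turned the median to −0.13. No share of all genes is given without LT-HSC 9, 16 and 3, so the 1 and 6 genes have no background beside them. Cell medians of the summed induced genes were 6.62 per 10000 in the first block and 9.38 in the second.

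Signalling genes split both ways between the LT-HSC blocks, 4 of 12 to the first, 3 to the second and 5 between. These counts were close to the shares of all genes, 26.8% and 29.5%. Stat2, Irf9, Ifnar1 and Irf1 were on the first side, and Ifnar2, Irf3 and Tyk2 on the second. Sensing genes gave 3 and 1, with Ddx58, Trim25 and Adar higher in the first and Eif2ak2 in the second. The blocks differed in other ways, with stem cell markers at a median of 10.6 per 10000 in the first block and 2.55 in the second and granulocyte and monocyte progenitor markers at 2.50 and 4.46. Their part in these values was not tested.

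Taken each alone over the same 24 CMP, LT-HSC 1 to 16 had 11 induced genes at least 2-fold higher and 3 lower, with a median of 1.63, beside 21.9% and 37.1% of all genes. LT-HSC 17 to 34 had 9 and 1, with a median of 1.01, beside 20% and 34%. Genes past 2-fold with either block as the LT-HSC pool included Ifit1, Isg15, Oas1a, Xaf1, Gbp2 and Iigp1. Some of these rested mostly on 1 cell in LT-HSC 17 to 34. LT-HSC 24 held 49 of 51 Ifit1 counts there, LT-HSC 20 held 77 of 96 for Isg15 and LT-HSC 25 held 17 of 18 for Iigp1. The Iigp1 log2 ratio for that block was 2.52 (0.92 to 5.11), an interval that reaches under 2-fold.

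ISRE cores were then set beside the direction among the 35. Of the 12 genes with a core and at least 20 counts, 9 were at least 2-fold higher in stem cells and 0 in progenitors. Of the 17 with a window and no core, 6 were higher in stem cells and 3 in progenitors. Outside the list the shares were closer, as 24.6% of 317 other genes with a core and 21.9% of 8055 without one were at least 2-fold higher in stem cells. The genes were chosen as interferon genes, so the first count describes them only.

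The rest of the pathway was given by lists chosen with earlier results of these data known. No interferon gene was seen in LT-HSC. Of 21 interferon genes listed, all but Ifnz had no count in any cell, which allows a level of up to 0.30 CPM in stem cells and 0.42 in progenitors (3 counts over the pool), and Ifnz had 2 counts in progenitors. Of 65 other response genes 57 had enough counts, and 27 were at least 2-fold higher in stem cells, 12 in progenitors and 18 between, with a median log2 ratio of 0.89, beside 22.7% and 28.1% of all genes and a median of −0.13. The highest by the naming rule were Ifi44, Slfn2, Tgtp1 and Igtp. Ifi44, an induced gene of antiviral states, had 416 counts in stem cells and 9 in progenitors, a log2 ratio of 4.96. Slfn2, which keeps T cells at rest, had 932 and 46. Both differed by block. Slfn2 stood at 252 CPM in LT-HSC 1 to 16 but 11.2 in LT-HSC 17 to 34, against 6.51 in progenitors. Ifi44 stood at 95.6 and 13.8 CPM in these blocks and 1.27 in progenitors. The GTPases Tgtp1 and Igtp, relatives of Iigp1, had log2 ratios of 3.35 and 3.02. At the other end stood Trim21 (−5.02), Ms4a4c (−3.42), Ifi30 (−2.31) and Helz2 (−1.72). Helz2 was at 79.2 CPM in CMP 1 and 2 but 7.97 in CMP 3 to 24, against 6.34 in stem cells.

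Among other signalling parts 5 of 22 were at least 2-fold higher in stem cells, 4 in progenitors and 13 between, with a median of −0.11, near the median of all genes (−0.13) and, for stem cells, near the 22.7% of all genes. The 28.1% of all genes higher in progenitors was above the share of these parts. The 5 parts past 2-fold in stem cells were Socs1 (3.45), Ikbke (3.12), Irf5 (1.96), Dhx58 (1.73) and Mb21d1 (1.02). Each was seen in fewer than 1 of 3 stem cells, so the naming rule left them out. Among genes that met the rule, Myd88 (0.35), Ptpn2 (0.02) and Tbk1 (−0.15) stood near the upper end. Lowest were Traf3, an adaptor of sensor signalling with 2 counts in stem cells and 315 in progenitors, Irf8 (−4.58), which also directs monocyte and dendritic cell fates, Ptpn11 (−1.45) and Pias1 (−1.01).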

How the data were processed

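Libraries of 58 singly sorted cells followed, per the labels' protocols, a changed form of Smart-seq2 with a cell barcode and a molecular identifier in the oligo(dT) primer and capture of 3′ ends. Per the submitters' processing notes the build was mm10 and the tools included TopHat2 2.0.12, HTSeq and Seurat 2.0, in unstated roles. Deposited was 1 table of counts, whole numbers for every gene symbol and cell. Whether these are molecules or reads, and whether strand was used, is not given in the sources used here.

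Columns were matched to cells by name. All cells were kept, no doublet caller was run on singly sorted cells, and nothing was filtered before totals were taken. Counts were summed per pool and scaled to CPM, with exact Poisson intervals. Log2 ratios used 0.5 added to each count and exact conditional binomial intervals. Cells are not replicates and each gate is 1 sample, so no p-value was computed. Medians and 2-fold counts of a list used genes with at least 20 counts over both pools. For lower bounds an empty pool was given 3 counts. For detection each cell was thinned to 97978 counts, the 10th percentile of totals, which left out 4 LT-HSC and 2 CMP. The ratio code was tested on simulated counts. Gene positions (mm10, counted from 1) are those of GENCODE M21, and windows are from RefSeq.

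The 35 genes, the other lists, the blocks of cells and the marker sets were chosen with earlier results of these data known. Genes with at least 50 counts were described in full. From each other list the 4 highest and 4 lowest log2 ratios were named, among genes with at least 50 counts and detection in no fewer than 1 of 3 cells of the higher pool. Not every gene so named is reported here, and 5 signalling parts past 2-fold in stem cells that missed the rule were added. Alternatives were averaging the CPM of single cells, scaling by the median of ratios, totals without ribosomal protein genes, other minimum counts, an added count of 1, thinning, no shallow cells (under 1 part in 3 of the gate's median total), each block alone and each cell left out. Leaving out LT-HSC 3, 9 and 16 was chosen after the data were seen. Work was done in Python 3.11.15 with numpy 2.4.6, scipy 1.17.1, pandas 2.3.3 and matplotlib 3.10.9.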

Additional observations from a re-analysis of the deposited data

How the results depend on the processing

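Log2 ratios and counts of genes are LT-HSC against CMP unless blocks are named. The median of the induced genes stayed above 1 under every alternative run, from 1.01 with LT-HSC 17 to 34 alone to 1.63 with LT-HSC 1 to 16 alone. It was 1.57 against CMP 1 and 2, where the median of all genes was 0.91, and 1.44 with thinned cells. With each cell left out it ran from 1.07 to 1.38. Induced genes at least 2-fold higher in CMP numbered 1 by mean cell CPM, with thinned cells and with LT-HSC 17 to 34. The summed induced log2 ratio was 1.17 by mean cell CPM, 1.08 with median-of-ratios scaling, which moves the median of all genes from −0.13 to about 0, 1.29 with thinned cells, 1.05 against CMP 3 to 24, 0.59 against CMP 1 and 2, 1.19 with LT-HSC 1 to 16, 0.81 with LT-HSC 17 to 34, 0.66 without LT-HSC 3, 9 and 16, and 0.83 to 1.04 with each cell left out.

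The signalling median was 1.15 against CMP 1 and 2 and 0.16 with LT-HSC 17 to 34, and with each cell left out ran from −0.0065 (without LT-HSC 34) to 0.58. Against CMP 1 and 2, 7 of 12 signalling genes passed 2-fold on the LT-HSC side. Over all genes that share was 48.8% and the median was 0.91. Signalling genes past 2-fold on the CMP side numbered 0 by mean cell CPM and median-of-ratios scaling. They were also 0 with totals without ribosomal protein genes and without LT-HSC 3, 9 and 16. They were 2 without shallow cells, against CMP 1 and 2 and with LT-HSC 17 to 34, and 3 with LT-HSC 1 to 16. On that side 18.9% of all genes passed 2-fold against CMP 1 and 2. The share was 34% with LT-HSC 17 to 34 and 37.1% with LT-HSC 1 to 16. Medians of all genes with these blocks were −0.24 and −0.36. The sensing median was 2.003 against CMP 1 and 2, 1.73 with LT-HSC 1 to 16 (2 genes higher in CMP), 0.45 with LT-HSC 17 to 34 (1 gene higher in LT-HSC), 0.63 without LT-HSC 3, 9 and 16, and 0.71 to 1.34 with each cell left out.

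Between the LT-HSC blocks the signalling median turned to −0.19 with thinned cells, and with each cell left out it ran from 0.072 to 0.50. The induced median turned to −0.79 without LT-HSC 3, 9 and 16 (1 gene higher in the first block and 6 in the second), and with each cell left out ran from −0.13 to 0.91. The sensing median was 0.33 with a minimum of 100 counts, 0.22 without LT-HSC 3, 9 and 16 and 0.65 to 1.46 with each cell left out, and 0 sensing genes were higher in LT-HSC 17 to 34 by mean cell CPM.

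Single genes also turned in direction. With stem cells 1 to 16 alone Ifnar2 went to −2.52, Tyk2 to −1.35, Irf3 to −0.91, Stat2 to 0.71 and Irf1 to 0.29, and with LT-HSC 17 to 34 Irf9 and Usp18 went to −0.08 and Trim30a to −0.06. Trim30a went to −0.29 and Usp18 to −0.17 without LT-HSC 3, 9 and 16. Ifngr2, Eif2ak2, Parp14 and Ifit3, whose counting intervals include 0, took either sign. Stat2 went to 1.10 by mean cell CPM and 1.04 against CMP 3 to 24, and with each cell left out ran from −0.82 to 1.18 (without CMP 1). In the same way Tyk2 ran from −0.46 (without LT-HSC 20) to 0.88, Usp18 from −0.20 (without LT-HSC 16) to 1.27, and Irf1 from −0.98 to 0.011 (without CMP 14), with 1.23 against CMP 1 and 2. Against CMP 1 and 2, Irf7 went to −0.94, Ifit2 to 2.59, Isg15 to −0.066 and Bst2 to −0.28. The cause of each shift was not tested. No paired analysis was possible because the cell numbers only name cells and no test was made. Depth limits genes with few counts, such as Ifit3, and a pool at 0 allows up to 0.30 CPM in LT-HSC and 0.42 in CMP.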
